A study of Mus musculus with 6 samples.

Results

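Polycomb repressive complex genes were followed in RNA-seq of V6.5 murine ESCs in which the cohesin subunit SMC1, the condensin II subunit CAPH2 or the condensin subunit SMC2 had been knocked down. The 10 genes were Ezh2, Ezh1, Eed, Suz12, Jarid2, Mtf2, Rnf2, Ring1, Cbx7 and Pcgf6, of 21201 genes or unnamed rows in the files. Each was taken by the gene symbol of its RefSeq accession, with the row holding most counts over the 6 libraries where a gene had more than 1. Ezh2 and Suz12 have 2 RefSeq rows each and the other 8 genes have 1.

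V6.5 is an ESC line of mixed C57BL/6 and 129 background. All cells, the controls included, were infected with a lentiviral shRNA, grown for 24 h and selected with puromycin, at 0.5 µg/ml for 48 h and then at 1 µg/ml for 48 h per the labels (the methods of the study give a different concentration). The labels give 1 library for a control hairpin against GFP, 1 library for SMC1, 2 for CAPH2 and 2 for SMC2. The 2 CAPH2 libraries carry different hairpins (CAPH2 #1 and CAPH2 #2), as do the 2 SMC2 libraries (SMC2 #1 and SMC2 #2). A difference between libraries of a pair therefore holds the difference between hairpins. Each library had its own hairpin and so its own infection, but nothing in the labels says that the infections began from separate cultures. SMC2 is shared by condensin I and condensin II, whereas CAPH2 belongs to condensin II alone. The cells were kept on irradiated fibroblast feeders and then for 1 passage without them, and ERCC synthetic RNAs were added to the RNA in proportion to the number of cells.

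Polycomb group proteins keep developmental genes silent through chromatin-modifying complexes of different kinds. PRC2 methylates histone H3 at lysine K27 through EZH2 or its paralog EZH1, together with EED, which reads the finished mark, and SUZ12, which holds the complex together. PRC1 ubiquitylates histone H2A through RING1B (encoded by Rnf2) or RING1A (encoded by Ring1), and its CBX or PCGF subunit sets which form of the complex is made. In ESCs these complexes sit at the promoters of lineage regulators that are silent or poised.

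Total counts were between 25467427 and 31337313 per library. The members had 387 to 10795 counts per library, with Ring1 lowest and Jarid2 highest. The knockdown targets were lower in the libraries labelled for them, with Smc1a at an RPKM of 14.4 against 36.1 for GFP, Ncaph2 (which encodes CAPH2) at 16.9 and 27.9 against 80.2, and Smc2 at 18.8 and 19.1 against 26.6. Ncaph2 was also lower than GFP in SMC1 (54.0) and with the SMC2 hairpins (63.9 and 64.9). Smc2 was higher than GFP in SMC1 (41.9) and with the CAPH2 hairpins (42.3 and 40.6). Smc1a was higher than GFP with the CAPH2 and SMC2 hairpins (41.7 to 46.9). RPKM scales reads to the length of the exons and to the reads of the library. All 10 ESC markers were detected in every library, with RPKM summing to 3995 for GFP, 3276 to 3494 for the CAPH2 and SMC2 hairpins and 2120 for SMC1. The summed RPKM of 10 fibroblast markers was 48.0, 52.0 to 75.7 and 99.8 in the same order, that of 8 trophectoderm markers was 173.7, 134.0 to 180.2 and 292.8, and that of 8 primitive endoderm markers was 18.7 to 21.9 throughout. Set against the CAPH2 and SMC2 libraries by edgeR, as was done for the members, SMC1 had 9 of 10 ESC markers lower, 6 of 7 tested fibroblast markers higher, and 4 of 7 tested trophectoderm markers higher and 2 lower. Of 8 primitive endoderm markers 2 were higher and 1 was lower. Of all rows in that test, 21.3% were lower and 23.1% higher. Krt8 and Krt18 made up most of the trophectoderm sum in SMC1, at 117.5 and 156.4 (51.4 and 61.0 with GFP). Cdx2 and Krt7 were also above GFP in SMC1. Tfap2c, Eomes and Hand1 were below it, Tfap2c at 5.85 against 51.2. The fibroblast genes Lum and Fap had 0 to 5 counts in any library, and the trophectoderm gene Elf5 had 0 counts in 5 of 6 libraries. Their part in the changes of the Polycomb genes was not tested, and in bulk RNA fewer cells of a type and less RNA per cell cannot be told apart.

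In the GFP library all 10 genes had an RPKM above 10. Cbx7 was highest at 128.7, followed by Jarid2 at 90.1, Eed at 84.8, Ezh2 at 82.25, Mtf2 at 63.9, Suz12 at 60.6, Pcgf6 at 58.4, Rnf2 at 45.3, Ezh1 at 14.5 and Ring1 at 10.5. The catalytic subunits thus came in a high and a low form, with 5.67 times as much Ezh2 as Ezh1 and 4.32 times as much Rnf2 as Ring1. Both ratios are of RPKM and so allow for transcript length. The order of Cbx7 over Jarid2, Mtf2 over Suz12, Suz12 over Pcgf6 and Rnf2 over Ezh1 was the same in 6 of 6 libraries. The order of Jarid2 over Eed and that of Pcgf6 over Rnf2 held in only 3 of 6 libraries, and that of Ezh1 over Ring1 in only 2 of 6.

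**Figure D1:**
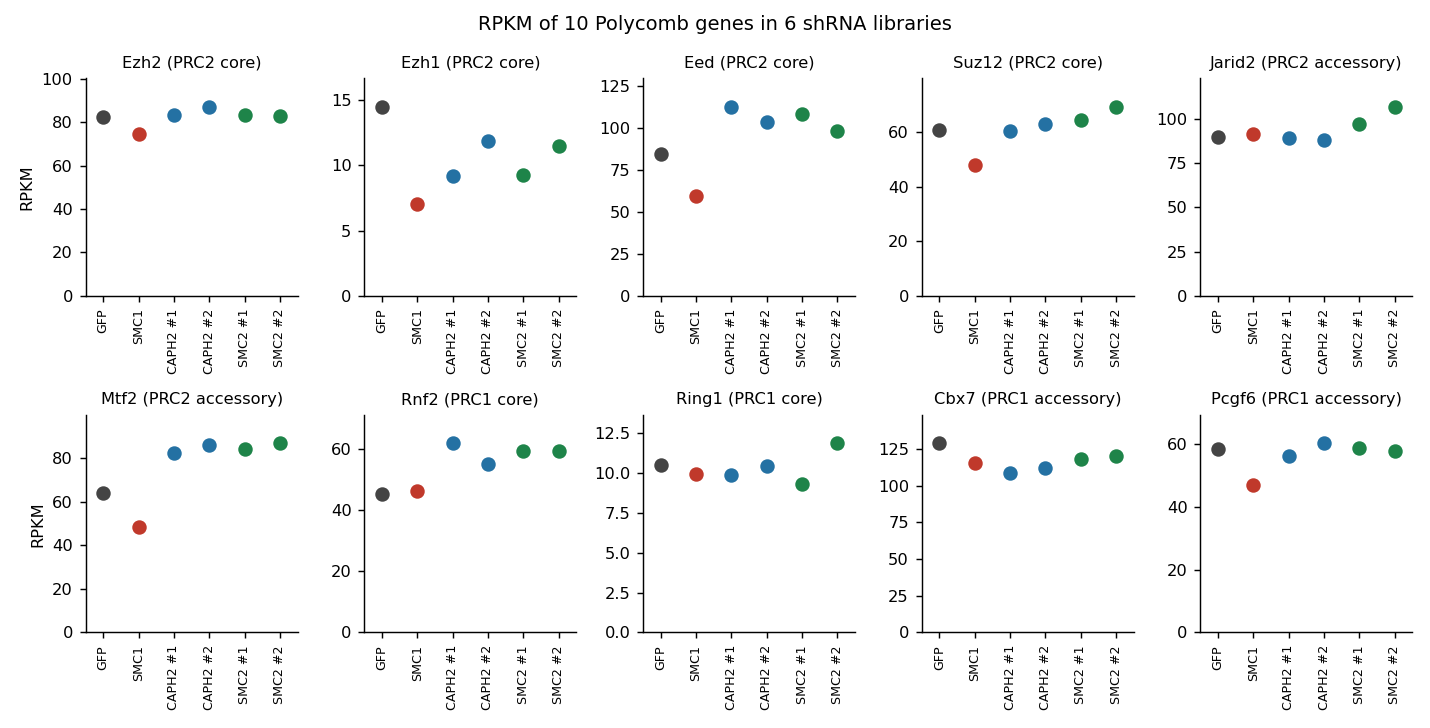
RPKM (vertical axis, from 0, a scale for each gene) of the 10 Polycomb genes in each of the 6 libraries, 1 point per library and no error bar. The SMC1 point of Ezh2, Eed, Mtf2, Suz12, Pcgf6 and Ezh1 lies below the other 5 points, whereas the Rnf2 points of GFP and SMC1 lie together below the 4 CAPH2 and SMC2 points.

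The genes separated into 3 sets. Eed, Mtf2 and Rnf2 rose with CAPH2 and SMC2 knockdown against GFP, whereas with SMC1 Eed and Mtf2 fell and Rnf2 did not. Ezh1 was lower than GFP in every knockdown library. The other 6 genes departed from GFP by at most 0.34 on the log2 scale in any library. Of these, Cbx7 was also lower than GFP in every knockdown library. The stretches just upstream of the annotated exons of Rnf2, Mtf2, Eed and Ezh1 are given because these 4 genes differed most from GFP. They were read from mm9 (NCBI build 37) on the strand of the gene, with GC boxes (GGGCGG on either strand) in capitals. The stretch for Rnf2 is at chr1:153347954-153348203 on the minus strand, that for Mtf2 at chr5:108494511-108494692 on the plus strand, that for Eed at chr7:97129494-97129736 on the minus strand and that for Ezh1 at chr11:101087778-101088014 on the minus strand.
Rnf2: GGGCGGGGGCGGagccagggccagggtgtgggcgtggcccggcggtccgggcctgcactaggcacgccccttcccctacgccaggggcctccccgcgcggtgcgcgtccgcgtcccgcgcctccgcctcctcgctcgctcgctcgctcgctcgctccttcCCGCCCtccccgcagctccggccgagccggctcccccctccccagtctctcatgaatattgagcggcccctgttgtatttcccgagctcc
Mtf2: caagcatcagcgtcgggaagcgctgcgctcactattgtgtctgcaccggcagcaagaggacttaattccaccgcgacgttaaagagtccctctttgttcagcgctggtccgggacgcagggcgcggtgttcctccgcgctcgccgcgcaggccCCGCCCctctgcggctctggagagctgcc
Eed: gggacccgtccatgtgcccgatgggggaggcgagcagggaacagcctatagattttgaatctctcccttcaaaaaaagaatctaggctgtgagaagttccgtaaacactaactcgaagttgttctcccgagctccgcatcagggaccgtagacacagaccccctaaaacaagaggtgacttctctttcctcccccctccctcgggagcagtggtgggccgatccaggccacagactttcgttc
Ezh1: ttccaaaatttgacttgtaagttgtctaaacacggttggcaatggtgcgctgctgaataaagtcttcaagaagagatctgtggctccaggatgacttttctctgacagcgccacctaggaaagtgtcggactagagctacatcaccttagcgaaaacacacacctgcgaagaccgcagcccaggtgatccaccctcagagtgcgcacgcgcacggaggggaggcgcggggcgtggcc

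In the 250 bases before the RefSeq start, Rnf2 had 3 GC boxes, Mtf2 had 1, and Eed and Ezh1 had no match. A GC box was present in 44.7% of 23016 windows of that length upstream of RefSeq starts. The same windows held 31 CpG dinucleotides for Rnf2, 28 for Mtf2, 17 for Ezh1 and 12 for Eed, beside a median of 10 over all windows and a 90th percentile of 28. The windows of Eed, Mtf2 and Rnf2 thus differed in both GC boxes and CpG count.

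Of the PRC2 core, Eed (NM_021876, chromosome 7 from 97103164 to 97129486, minus strand, mm9 as for all positions here) differed 1.89-fold between its highest and lowest library. Its RPKM was 84.8 with GFP, 59.6 with SMC1, 112.7 and 103.7 with the CAPH2 hairpins, and 108.1 and 98.3 with the SMC2 hairpins. The SMC1 library was lowest, and all 4 CAPH2 and SMC2 libraries lay above GFP. The SMC1 level was 70.3% of GFP (95% exact binomial interval 66.7 to 74.0, counting error only), a log2 change of -0.51.

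Ezh2 (NM_007971, chromosome 6 from 47480275 to 47545029, minus strand), the main methyltransferase subunit of dividing cells, varied little. Its RPKM was 82.25 with GFP, 74.5 with SMC1, 83.3 and 87.2 with the CAPH2 hairpins, and 83.2 and 83.0 with the SMC2 hairpins. The highest library was 1.17 times the lowest, which was SMC1 at 90.6% of GFP (86.8 to 94.6).

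Ezh1 (NM_007970, chromosome 11 from 101052430 to 101087764, minus strand) is the paralog that prevails in resting cells. Its RPKM was 14.5 with GFP, 7.05 with SMC1, 9.19 and 11.9 with the CAPH2 hairpins, and 9.23 and 11.5 with the SMC2 hairpins. All 5 knockdown libraries lay below GFP, and SMC1 was at 48.6% of GFP (44.0 to 53.7), a log2 change of -1.04. The first hairpin of each pair was lower than the second, so the pairs spread more for Ezh1 (SD of 0.24 on the log2 scale within pairs) than for any other member. The ratio of Ezh2 to Ezh1 was 10.6 in the SMC1 library and 7.21 to 9.06 in the CAPH2 and SMC2 libraries.

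Suz12 (NM_199196, chromosome 11 from 79806608 to 79847624, plus strand) encodes the scaffold of PRC2. Its RPKM was 60.6 with GFP, 47.7 with SMC1, 60.5 and 62.9 with the CAPH2 hairpins, and 64.2 and 69.2 with the SMC2 hairpins. SMC1 alone stood apart, at 78.8% of GFP (75.6 to 82.0). A near-identical stretch on chromosome 13 covers 15.6% of the Suz12 transcript, and reads there may have been divided between the gene and this copy.

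Mtf2 and Jarid2 encode accessory subunits that bring PRC2 to CpG-rich chromatin. Mtf2 (NM_013827) lies on chromosome 5 from 108494761 to 108538021, plus strand. Its RPKM was 63.9 with GFP, 48.65 with SMC1, 82.7 and 86.1 with the CAPH2 hairpins, and 84.6 and 86.9 with the SMC2 hairpins. The 4 CAPH2 and SMC2 values lay close together above GFP, and SMC1 lay below it at 76.1% (73.0 to 79.3). A copy elsewhere matched 12.2% of the Mtf2 transcript at 95% identity or more, and 395 exon bases are shared with Tmed5 on the opposite strand, which the library kit could not separate.

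Jarid2 (NM_021878, chromosome 13 from 44826272 to 45016346, plus strand) had an RPKM of 90.1 with GFP, 91.4 with SMC1, 89.2 and 88.4 with the CAPH2 hairpins, and 97.4 and 107.0 with the SMC2 hairpins. The SMC2 libraries were highest, and the SMC1 library was at 101.5% of GFP (98.5 to 104.5).

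Rnf2 (NM_011277, chromosome 1 from 153316536 to 153347953, minus strand) encodes the main ubiquitin ligase of PRC1. Its RPKM was 45.3 with GFP, 46.2 with SMC1, 61.8 and 55.2 with the CAPH2 hairpins, and 59.3 and 59.4 with the SMC2 hairpins. GFP and SMC1 lay together, at 101.9% (96.6 to 107.4), and the other 4 libraries did not overlap with them. Ring1 (NM_009066, chromosome 17 from 34157739 to 34161625, minus strand), its paralog, had 10.5 with GFP, 9.91 with SMC1, 9.85 and 10.4 with the CAPH2 hairpins, and 9.33 and 11.8 with the SMC2 hairpins, so that no group stood apart. The ratio of Rnf2 to Ring1 was 4.32 in GFP, 4.66 in SMC1 and 5.02 to 6.35 in the others.

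Cbx7 (NM_144811, chromosome 15 from 79746237 to 79763076, minus strand), which encodes the chromodomain subunit that reads H3K27 methylation, had the highest RPKM of the members. It had 128.7 with GFP, 115.7 with SMC1, 108.8 and 112.0 with the CAPH2 hairpins, and 118.3 and 120.2 with the SMC2 hairpins. Every knockdown library lay below GFP, with SMC1 inside the range of the others. Pcgf6 (NM_027654, chromosome 19 from 47108109 to 47125335, minus strand) encodes a subunit of a variant PRC1. Its RPKM was 58.4 with GFP, 47.0 with SMC1, 56.1 and 60.1 with the CAPH2 hairpins, and 58.8 and 57.8 with the SMC2 hairpins. Only the SMC1 library was apart, at 80.5% of GFP (75.8 to 85.4). A part of the Pcgf6 transcript (4.98%) had 105 near-identical matches elsewhere, and reads there may have been discarded.

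**Figure D2:**
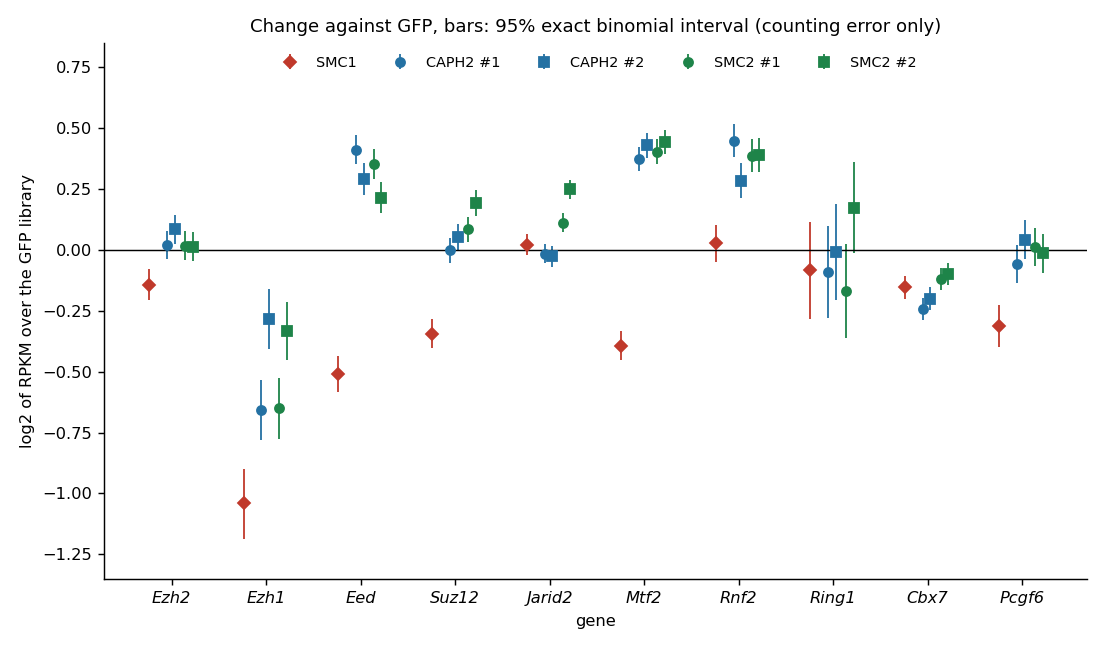
Log2 of the RPKM of each knockdown library over the GFP library (vertical axis) for the 10 genes, with bars for the 95% exact binomial interval of the counts. The SMC1 interval lies below 0 for 7 genes (Ezh2, Ezh1, Eed, Suz12, Mtf2, Cbx7 and Pcgf6) and spans 0 for Jarid2, Rnf2 and Ring1.

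Against GFP, 8 of the 10 genes were lower in the SMC1 library, where 51.8% of 15538 rows were lower, counting rows whose GFP value was at least 1. Ezh1 and Eed were lower by 0.5 or more on the log2 scale, 2 of 10 genes, beside 20.5% of those rows. Ezh1 alone passed a log2 change of 1, beside 8.17% of rows. The median log2 change was -0.23 for the 10 genes and -0.02 for all rows. Neither library has a replicate, and no test of this comparison was run. For the average of the CAPH2 hairpins 5 of 10 genes were below GFP (51.9% of rows), and for SMC2 3 of 10 were (54% of rows). None of the 10 changed by 0.5 or more in either average, beside 10.3% of rows for CAPH2 and 9.27% for SMC2.

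The SMC1 value lay below all 4 CAPH2 and SMC2 values for 7 of the 10 genes (Ezh2, Ezh1, Eed, Suz12, Mtf2, Rnf2 and Pcgf6), as it did for 41.2% of rows. The GFP value lay below all 4 for Ezh2, Eed, Mtf2 and Rnf2 (32.4% of rows) and above all 4 for Ezh1 and Cbx7 (37.9% of rows). Scaled to the ERCC spike-in RNAs, 1 of the 10 genes was below GFP in SMC1, the median of the 10 was 0.63 and that of all rows was 0.84.

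The CAPH2 and SMC2 libraries gave a comparison of SMC1 with other knockdowns that does not take GFP as its reference, although the GFP library entered the filter, the scaling and the fit. It was tested with edgeR's quasi-likelihood test over 18463 rows, with the spread taken from the CAPH2 and SMC2 pairs, which the lone SMC1 library is assumed to share. In this test 7 of the 10 genes were lower in SMC1 at an adjusted p under 0.05 and none was higher. Of all rows tested, 44.4% passed the threshold, 21.3% lower and 23.1% higher. The members' median log2 difference was -0.35, and that of all rows was -0.01.

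Eed was lower by a log2 difference of -0.85 ± 0.089 (SE, adjusted p = 7.7e-05) and Mtf2 by -0.83 ± 0.074 (adjusted p = 3.3e-05). For both, the CAPH2 and SMC2 libraries lay above GFP and SMC1 below it, so the difference spans both sides of the GFP level. Ezh1 was at -0.59 ± 0.16 (adjusted p = 0.016), Suz12 at -0.45 ± 0.077 (adjusted p = 0.0013) and Pcgf6 at -0.33 ± 0.081 (adjusted p = 0.0087). Rnf2 was at -0.38 ± 0.084 (adjusted p = 0.0055), with an SMC1 level whose counting interval spanned that of GFP. Ezh2 was at -0.20 ± 0.072 (adjusted p = 0.047), a call that was lost without CAPH2 #2, SMC2 #1 or SMC2 #2, with DESeq2 and with DESeq2 size factors. Jarid2 (-0.08 ± 0.074), Ring1 (-0.09 ± 0.15) and Cbx7 (-0.01 ± 0.068) did not pass. With counts scaled to the ERCC RNAs none of the 10 passed, the median difference of all rows moved to 0.41, and the members' median was 0.07, with 9 of 10 below the median of all rows.

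**Figure D3:**
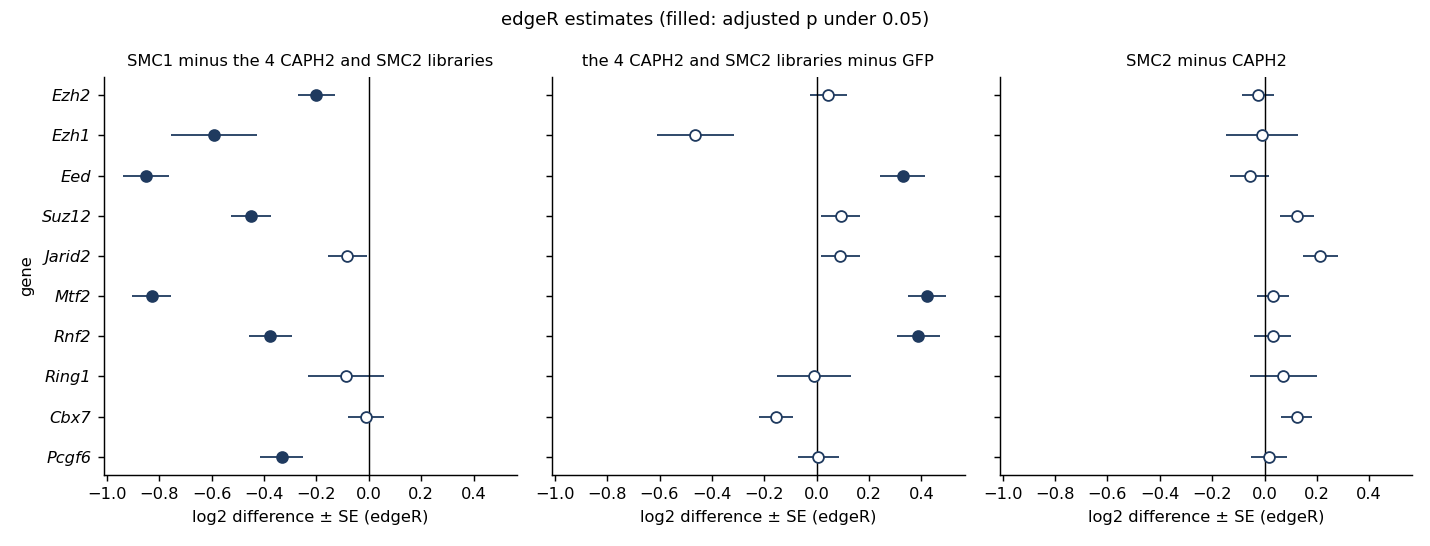
edgeR log2 differences with their standard errors (horizontal axis) for the 10 genes in 3 comparisons, filled where the adjusted p was under 0.05. Eed and Mtf2 lie farthest to the left in the SMC1 panel, Mtf2, Rnf2 and Eed are the filled points to the right of 0 in the comparison with GFP, and no point is filled for SMC2 minus CAPH2.

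With the CAPH2 and SMC2 libraries set against GFP in the same fit, 3 of the 10 genes were higher and none was lower, where 12.5% of rows passed (7.04% higher and 5.43% lower). Mtf2 was higher by 0.42 ± 0.071 (log2, SE, adjusted p = 0.012), Rnf2 by 0.39 ± 0.083 (adjusted p = 0.022) and Eed by 0.33 ± 0.085 (adjusted p = 0.036). In each case 4 of 4 libraries lay above the GFP library, which has no replicate. All 4 lay above GFP for 32.4% of rows with a GFP RPKM of at least 1, and below it for 37.9%. Of the cell type markers, 2 of 10 for ESCs were lower in this contrast, 2 of 7 for fibroblasts and 1 of 8 for primitive endoderm were higher, and 1 of 7 for trophectoderm was higher and 1 lower, and their part in these changes was not tested. Eed was not called by edgeR without SMC2 #1 (adjusted p = 0.068, with a range of 0.0010 to 0.75 over 11 alternatives, the highest under ERCC scaling). Ezh1 had -0.46 ± 0.15 (adjusted p = 0.067), with 4 of 4 libraries below GFP, and it was called in 6 of 11 alternatives, among them those without CAPH2 #1, CAPH2 #2 or SMC2 #2. Cbx7 had -0.16 ± 0.067 (adjusted p = 0.15), and the other 5 genes were within 0.10 of 0. No member passed when counts were scaled to the ERCC RNAs. This comparison and that of SMC1 with GFP share the GFP library, and this comparison and the previous one share the CAPH2 and SMC2 libraries.

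The 2 CAPH2 libraries were then compared with the 2 SMC2 libraries, the only comparison with 2 libraries on each side. None of the 10 genes was called by edgeR, and 1 of 18245 rows was (0.00548%). At an unadjusted p under 0.05 edgeR gave 565 rows, and DESeq2 called 5 rows. Jarid2 had the largest difference among the members, 0.21 ± 0.066 higher in SMC2 (unadjusted p = 0.0092, adjusted p = 1.0). The others lay between -0.06 for Eed and 0.12 for Suz12. Ncaph2, a knockdown target, itself missed the threshold here (adjusted p = 0.051).

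Other subunits of the complexes were taken from lists of textbook members. Of 8 other PRC2 subunits, 4 were lower in SMC1 than in the CAPH2 and SMC2 libraries and 2 were higher, where 21.3% of all rows were lower and 23.1% higher. Epop, which encodes a PRC2 partner of ESCs, went from an RPKM of 163.3 with GFP to 81.5 with SMC1, and 144.9 to 156.9 in the others (log2 difference of -0.90, adjusted p = 2.5e-05). Phf19, a paralog of Mtf2, had 5.34, 2.49 and 3.64 to 4.41 in the same order (-0.71, adjusted p = 0.0036). Rbbp4, a histone-binding subunit, was lower by -0.36, and Aebp2, named after its value was seen, by -0.28. Rbbp7, the paralog of Rbbp4, was higher by 0.25, and Ezhip, which encodes an inhibitor of PRC2, was higher by 1.25, with an RPKM of 4.27 in SMC1 and 1.41 to 2.08 elsewhere. Under ERCC scaling Rbbp4 and Aebp2 changed sign. The share of all rows called against GFP was 7.04% higher and 5.43% lower. Against GFP, Rbbp7, Aebp2 and Lcor were higher in the CAPH2 and SMC2 libraries (log2 differences of 0.53, 0.39 and 0.80), and 2 rather than 3 were higher without SMC2 #1 or without SMC2 #2, while 1 was lower without CAPH2 #1 or without CAPH2 #2.

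Of 30 other PRC1 subunits, 13 were higher and 5 lower in SMC1 than in the CAPH2 and SMC2 libraries, with a median of 0.08. The shares over all rows were 23.1% higher and 21.3% lower. Bmi1, a PCGF subunit of canonical PRC1, had an RPKM of 2.66 in GFP, 8.78 in SMC1 and 3.41 to 4.23 in the others (log2 difference of 1.19, adjusted p = 1.5e-04). Yaf2, which takes the place of a CBX protein in variant PRC1, had 7.74, 17.9 and 7.95 to 9.33 (1.07, adjusted p = 8.9e-05). Wdr5, which is also part of complexes that methylate H3K4, was lower by -0.59 (adjusted p = 3.4e-04), whereas Pcgf1 (-0.35) and Cbx6 (-0.12) were not called. Against GFP, 7.04% of all rows were higher and 5.43% lower in the CAPH2 and SMC2 libraries. Of the 30, 2 were higher there and 28 were not called. This became 7 higher and 1 lower without CAPH2 #1, 6 higher and 3 lower without CAPH2 #2, 1 higher and 1 lower without SMC2 #1, and 0 without SMC2 #2.

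The paralog shares give the same transcripts as parts of a family. Cbx7 held 73.8% of the summed RPKM of 4 CBX genes in the GFP library, 73.1% to 77.1% in the CAPH2 and SMC2 libraries and 69.7% in the SMC1 library. Pcgf6 held 42.3% of the summed RPKM of the 6 PCGF genes in the GFP library, 39.5% to 41.3% in the CAPH2 and SMC2 libraries and 34.2% in the SMC1 library. In SMC1, Pcgf3 held 23.1% (14.9% in GFP) and Bmi1 held 6.40% (1.93% in GFP), while Pcgf1, Pcgf2 and Pcgf5 held less than in GFP. Mtf2 held 84.6% to 89.7% of the summed RPKM of Mtf2, Phf1 and Phf19 in all libraries. These shares do not depend on the scaling of the libraries.

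**Figure D4:**
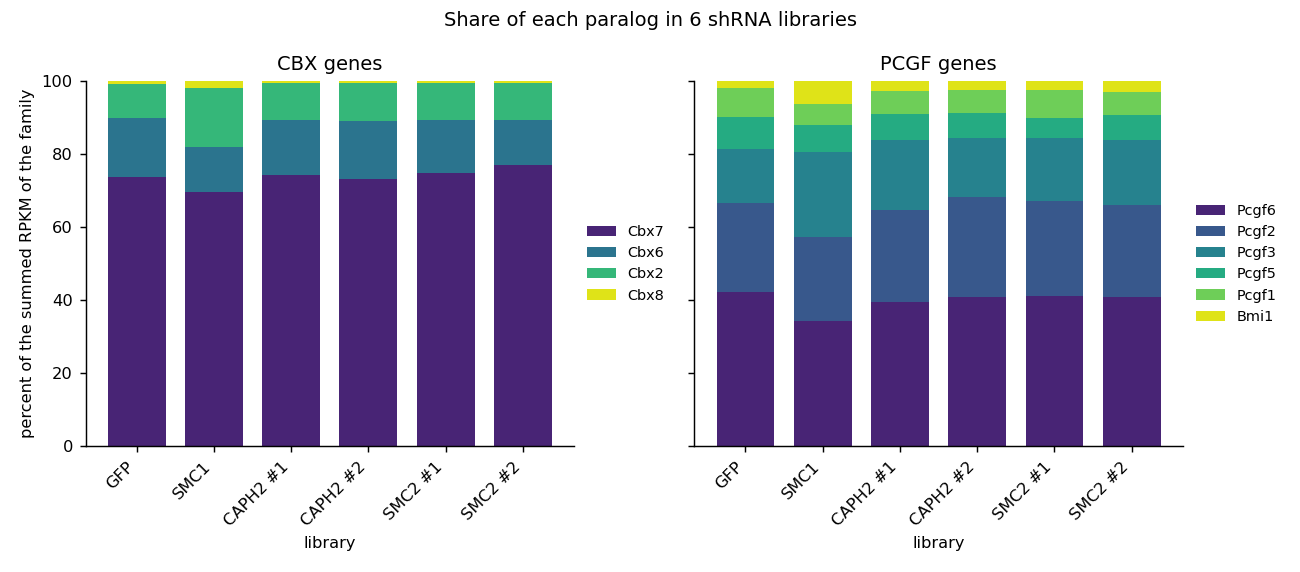
Share of the summed RPKM of 4 CBX genes (left) and the PCGF genes (right) held by each paralog in each library, in percent, with no error bar. Cbx7 and Pcgf6 hold the largest share in all 6 libraries, and both shares are lowest in the SMC1 library (69.7% and 34.2%).

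Chromatin regulators that oppose Polycomb were called at about the rate of all rows in the SMC1 contrast. Of 20, 6 were higher and 4 were lower in SMC1 than in the CAPH2 and SMC2 libraries, beside 23.1% and 21.3% of all rows. Men1 (-0.75), Dpy30 (-0.65) and Rbbp5 (-0.57), subunits of H3K4 methyltransferase complexes, were lower, whereas Asxl3 (1.22), Nsd2 (0.81) and the H3K4 methyltransferase gene Kmt2a (0.49) were higher. Asxl3 was low throughout, with an RPKM of 0.25 in GFP and 0.88 in SMC1. The comparison with GFP called 7.04% of all rows higher and 5.43% lower. Against GFP, 5 of the 20 were higher in the CAPH2 and SMC2 libraries and none was lower, which became 10 higher without CAPH2 #1, 7 higher and 1 lower without CAPH2 #2, and 3 higher without SMC2 #2.

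Of 55 genes listed as Polycomb targets in ESCs, 45 had enough counts for the test. Of these, 25 were higher in SMC1 than in the CAPH2 and SMC2 libraries and 4 were lower, beside 23.1% and 21.3% of all rows, with a median log2 difference of 0.71. Without the filter on low counts 31 of 55 were higher and 4 lower, and DESeq2 called 16 of the 45 higher and 4 lower. Over all rows these settings gave 4420 higher and 4350 lower of 22488 without the filter, and 2761 and 2708 of 18463 with DESeq2. Wt1, a transcription factor of kidney and gonad, had an RPKM of 1.47 in GFP, 7.89 in SMC1 and 1.74 to 2.20 in the others (2.01, adjusted p = 1.3e-05). Barx1 (2.60) and Msx1 (1.30), homeobox genes, were also higher. Olig2, a regulator of oligodendrocyte and motor neuron fate, went the other way, from 32.2 in GFP to 11.1 in SMC1 (-1.31, adjusted p = 2.3e-05), as did Lhx1 (-2.41), while Hand1 (-0.66) was not called. The ESC marker sum was lowest and the fibroblast and trophectoderm marker sums highest in the same SMC1 library, and their part in these counts was not tested. The trophectoderm sum was highest mostly through Krt8 and Krt18. Cdx2, Eomes and Hand1 are both targets listed here and trophectoderm markers, and Gata4, Gata6, Sox17 and Foxa2 both targets and primitive endoderm markers. Against GFP, 3 of the 45 were higher in the CAPH2 and SMC2 libraries and none was lower, a count that became 9 higher without CAPH2 #1, 8 higher and 2 lower without CAPH2 #2, and 2 higher without SMC2 #1. Over all rows, 7.04% were higher and 5.43% lower in that comparison with GFP. Under ERCC scaling the calls in the SMC1 contrast were 15 higher and 1 lower for the targets (median of 1.13, beside 0.41 for all rows). They were 4 higher and 0 lower for other PRC1 subunits, 1 higher and 0 lower for other PRC2 subunits, and 1 higher and 0 lower for opposing regulators. Of all 18463 rows, 1541 were higher and 170 lower under that scaling.

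**Figure D5:**
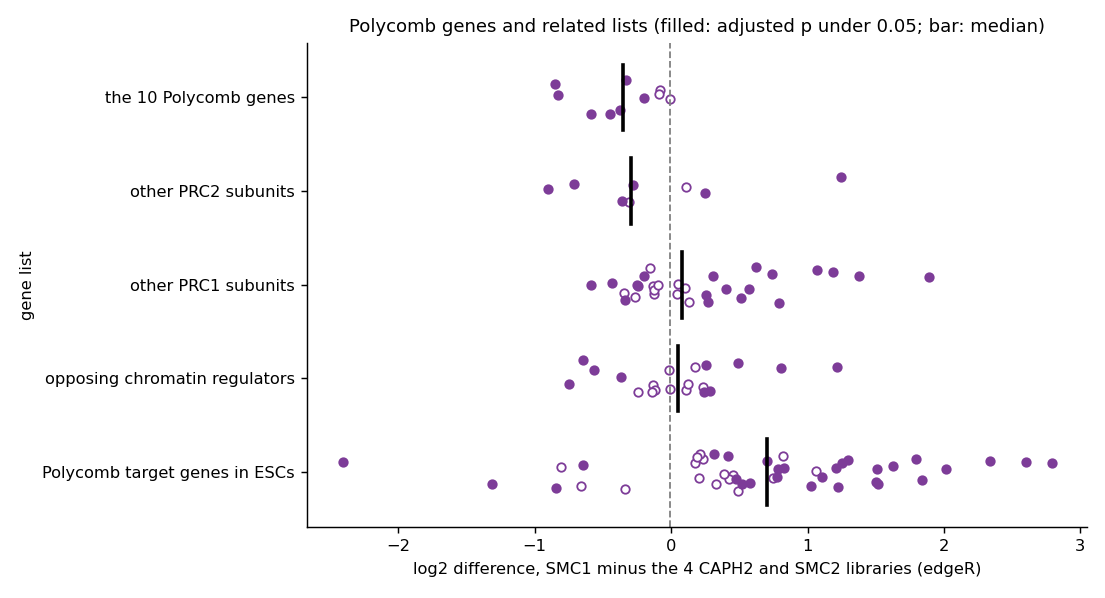
edgeR log2 difference of SMC1 from the CAPH2 and SMC2 libraries (horizontal axis) for each gene of 5 lists, filled where the adjusted p was under 0.05, with a bar at each list's median and a dashed line at the median of all rows. The medians are -0.35 for the 10 Polycomb genes, -0.30 for other PRC2 subunits, 0.08 for other PRC1 subunits, 0.05 for opposing regulators and 0.71 for Polycomb targets.

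Among 7795 genes with a mean of at least 500 counts, those whose log2 RPKM followed Ezh2 most closely over the 6 libraries were Fbxo8, Agfg1 and Rhot1, with root mean square differences of 0.012, 0.015 and 0.020 after centring. Trh and Esf1 were among the 3 closest to Rnf2, with 0.035 and 0.037. Trh, which encodes thyrotropin-releasing hormone, had an RPKM of 367.7 in GFP, 368.0 in SMC1 and 433.4 to 481.4 in the others.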

How the data were processed

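RNA was sequenced with the TruSeq RNA v2 kit, which does not mark strand. Per the study's methods, Bowtie alignment to mm9 by the authors discarded reads aligning to more than 2 places. They deposited, for each RefSeq transcript, raw counts of exonic reads and RPKM values, which the authors normalized for exonic length and sequencing depth, without the ERCC RNAs. Each table held 26073 RefSeq rows and 92 ERCC rows. A read in an exon shared by isoforms counts for each of them. The accession gave a symbol for 25353 rows, an overlapping GENCODE gene on mm9 did so for 572, and 148 rows stayed unnamed.

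The 10 members and the gene lists were chosen with earlier results of these data known. Other genes were named by rule: of each list, with a mean of at least 50 counts, the 3 largest increases and 3 largest decreases of log2 RPKM in SMC1 against GFP, the knockdown targets, and the 3 genes closest to Ezh2 and to Rnf2. Results for 2 genes under this rule are not reported here. Changes against GFP are log2 ratios of deposited RPKM with no pseudocount and with hairpins averaged, over rows whose GFP value was at least 1. Intervals are exact binomial at 95% and cover counting error only.

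Counts were tested with the quasi-likelihood test of edgeR 4.0.16 after TMM scaling, with p-values adjusted by Benjamini-Hochberg over all rows, on rows with at least 10 counts in at least 2 of the libraries fitted. CAPH2 and SMC2 were compared in 4 libraries, and the other contrasts came from 1 fit of all 6. P-values measure the spread between these libraries, which carry different hairpins. On simulated counts with 200 rows changed by 1 on the log2 scale and a biological coefficient of variation of 0.05, below the 0.067 fitted to these libraries, edgeR recovered 199 for SMC2 against CAPH2 (18325 rows, 10 false of 209 calls), 198 for the SMC1 contrast (18474 rows, 8 false of 206) and 196 for the GFP contrast (18462 rows, 12 false of 208). Every simulated library had the same spread, so the simulation could not test whether the lone SMC1 and GFP libraries vary like the pairs. Its rates need not hold for smaller changes or where many more rows differ. Alternatives were DESeq2 1.42.0, other scalings (DESeq2 size factors, ERCC sums), no filter, 1 row per gene, pseudocounts of 1 and 0.1, the second RefSeq row of Ezh2 and Suz12, and leaving out each hairpin. Near-identical copies were found with blastn 2.17.0 (at least 95% identity over 100 bases). Other steps used Python 3.11.15 and scipy 1.17.1.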

Additional observations from a re-analysis of the deposited data

How the results depend on the processing

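Under scaling to the ERCC RNAs 1 member was below GFP in SMC1, 1 in CAPH2 and 0 in SMC2, no member was called in any comparison, and the rows called fell to 1711 for SMC1 against the CAPH2 and SMC2 libraries and to 2 for those libraries against GFP. The ERCC share of counts was 0.948% in SMC1, 1.72% in GFP, and 1.11% and 1.77% in the CAPH2 pair. The sign turned for Eed in SMC1 against GFP (0.36), for Ezh2 (0.22), Jarid2 (0.34), Rnf2 (0.036) and Pcgf6 (0.094) in SMC1 against the CAPH2 and SMC2 libraries, and for Cbx7 (0.30) in those libraries against GFP, counting a sign change in a test only where the estimate exceeded its standard error and in RPKM only where the log2 change was at least 0.5. The cause was not tested.

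Under the other alternatives 6 or 7 members were called in SMC1 against the CAPH2 and SMC2 libraries, and 2 to 4 in those libraries against GFP. Rows called for CAPH2 against SMC2 were 1 as reported, 3 with DESeq2 size factors, 4 with ERCC sums, 8 without the filter, 5 with DESeq2, 3 with all 6 libraries in 1 fit and 1 to 404 leaving out 1 hairpin (404 without CAPH2 #2, 29 without CAPH2 #1, 3 without SMC2 #1). For the CAPH2 and SMC2 libraries against GFP they were 2302 as reported, 1417 with DESeq2 and 1563 to 4993 leaving out 1 hairpin (4993 without CAPH2 #2, 3511 without CAPH2 #1). The share of rows changed by 0.5 or more against GFP was 10.3% for CAPH2 and 9.27% for SMC2. It became 6.59% and 6.04% with a GFP RPKM of at least 5, and 20.9% and 19.6% with no minimum beyond 1 count.

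Replicate numbers pair different hairpins, so they share only a number. The deviations of same-numbered libraries correlated at 0.138 over 15254 rows. With a replicate block 15 rows were called for CAPH2 against SMC2 and 4310 for the CAPH2 and SMC2 libraries against GFP, with 6 members called in the SMC1 contrast (Ezh2 was not) and 4 in the GFP contrast (Ezh1 was added).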
